A study of Mus musculus with 16 samples.

Results

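Bone marrow LSK cells taken at Day0, before the transplant challenge, were compared between libraries labelled Gata2 and libraries labelled WT. The comparison rests on 5 of the 16 RNA sequencing libraries of the series: 3 labelled Day0_Gata2 and 2 labelled Day0_WT, chosen by their sample titles. LSK cells are lineage marker negative, Sca-1 positive and Kit positive, the mouse marrow fraction that holds blood stem cells and early multipotent progenitors. The series concerns a blood system with too little of the transcription factor GATA2, challenged by grafting small numbers of these cells into irradiated WT hosts. The labels give the genotype only as Gata2 or WT and the cells as LSK. They name no strain, age, sex, allele or treatment, and no animal behind a library, so the spread between replicates may in part be technical. LSK libraries labelled Day2, 3 of WT and 2 of Gata2, are set beside them at the end.

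GATA2 is a zinc finger transcription factor that binds GATA motifs and works in complexes with TAL1, LMO2, RUNX1, FLI1 and ERG in blood stem and progenitor cells. Stem cells depend on it to form and to persist, and carriers of loss-of-function variants can develop cytopenias and myeloid malignancy. Long-term stem cells within the LSK fraction are mostly quiescent and carry SLAMF1 without CD48, whereas the more abundant multipotent progenitors carry CD48 and divide more often.

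The libraries held 19618830 and 47904658 counts for WT libraries 1 and 2, and 48725484, 48084008 and 68305582 counts for Gata2-label libraries 1, 2 and 3. Levels below are TMM-scaled CPM, which set a gene's count against the total of its library, and a difference is a log2 fold change of the libraries labelled Gata2 against WT, with its standard error (SE) from edgeR. Of 45706 gene IDs in the table, 19162 passed the low count filter and were tested. Judged by the X-linked Xist and the Y-linked Ddx3y, WT library 1 and Gata2-label libraries 1 and 2 were male, and WT library 2 and Gata2-label library 3 were female. Ddx3y measured 28.1, 52.3 and 52.4 CPM in the 3 male libraries, against 0.0980 and 1.94 CPM in the female ones. Each genotype therefore held both sexes, and a difference could be read in a male set and in a female pair. The male set has WT library 1 alone for WT and the female pair WT library 2 alone. Sex and the single WT library therefore cannot be told apart in these readings.

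The cells carried the expected surface markers of their label at the RNA level. Per kilobase of exon, Kit, which encodes the stem cell factor receptor, stood at 66.8 and 53 CPM in the WT libraries and at 61.1, 80.3 and 62.9 in the Gata2-label libraries. Ly6a, which encodes Sca-1, stood at 46.8 and 51.6 CPM per kilobase in WT, and at 57.6, 53.2 and 57.5 in the Gata2-label libraries. Cd3e, the T cell receptor subunit, reached 0.615 CPM per kilobase at most, and Ms4a1, which encodes the B cell protein CD20, reached 0.171. Kit and Sca-1 were thus far above both mature lineage genes in all 5 libraries on the length-adjusted scale. Those genes stand for T and B cells only. The myeloid gene Mpo lay above Kit in every library, at 377 and 851 CPM per kilobase in WT and 1142, 994 and 1510 in the Gata2-label libraries. Summed over the 14 blood lineage surface markers, all of which passed the filter, the level was 217 and 125 CPM in WT and 118, 108 and 165 CPM in the Gata2-label libraries, so the ranges overlapped. Itgam, the myeloid integrin, made up much of that sum, at 80.9 and 41.4 CPM in WT against 40.4, 44.8 and 77.4 CPM.

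WT library 1 stood apart from the other 4 libraries, and every result below has to be read with that in view. Over 13751 genes of 1 CPM or more, 35.3% differed over 2-fold between the 2 WT libraries. WT library 2 differed over 2-fold from Gata2-label libraries 1, 2 and 3 at only 1.35%, 1.03% and 1.16% of genes, which is in the range of 0.487% to 1.49% among the Gata2-label libraries themselves. Of 10738 genes with a mean of 5 CPM or more, 917 were over 2-fold above the highest other library in WT library 1 and 1775 were over 2-fold below the lowest. The same counts were 5 and 8 for WT library 2, and at most 9 for any Gata2-label library. WT library 1 was also the shallowest. It had 9.33% of its counts (Wilson 95% interval 9.32% to 9.34%) on 4 genes rich in repeat sequence. That share was 6.51% in WT library 2 and 5.83%, 5.49% and 5.10% in Gata2-label libraries 1, 2 and 3. Both WT libraries thus lay above the Gata2 label in repeat share. They lay below it in genes with a count, at 22150 and 26159 against 29718, 30564 and 28286. These traits and the label cannot be told apart. Mitochondrially encoded genes took 2.01% of the counts of WT library 1 (interval 2.00% to 2.01%), against 0.462% to 0.653% elsewhere. These intervals cover counting error only. WT library 1 also had the highest summed level of blood lineage surface markers, at 217 CPM. Late neutrophil genes, averaged on the log2 scale, were lowest there, at -0.61 against their average over the 5 libraries. The part of depth, repeat reads, mitochondrial reads and mature cells in the differences of WT library 1 was not tested.

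**Figure D1:**
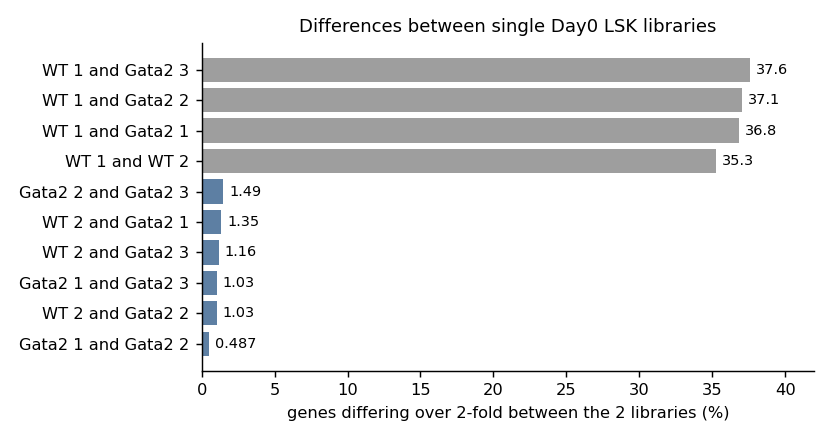
Share of 13751 genes (x axis, percent) that differed over 2-fold in CPM between each pair of single Day0 LSK libraries (y axis); grey bars are pairs with WT library 1, blue bars all other pairs. Pairs with WT library 1 lie between 35.3% and 37.6%, whereas all other pairs, WT library 2 against the Gata2 label included, lie at 1.49% or below.

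Gata2 itself (chromosome 6, 88193891 to 88207032, plus strand, mm10) was more abundant in the libraries labelled Gata2. It measured 446 and 329 CPM in the WT libraries and 611, 752 and 677 CPM in the Gata2-label libraries. The lowest Gata2-label library lay above the higher WT library, with a log2 fold change of 0.81 ± 0.20 (SE) and an edgeR adjusted p of 0.341. The excess was 0.60 on the log2 scale between male libraries and 1.04 between female libraries. Total Gata2 RNA therefore did not identify the labelled libraries as those with less of the transcript, and counts per gene do not show which allele the reads came from. The libraries are called by their labels throughout, and each direction below is drawn from those labels. Rpn1, the neighbouring gene upstream on the same strand (88084482 to 88105304), which encodes ribophorin 1 of the oligosaccharyltransferase, was also higher. Its levels were 306 and 372 CPM in WT and 565, 512 and 540 CPM in the Gata2-label libraries (0.67 ± 0.13, adjusted p = 0.341).

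The partner factors of GATA2 were apart about as often as other genes. All 16 members of the list of GATA factors and partners passed the filter, and their median log2 fold change was -0.12. The groups were apart at 2 higher members, Gata2 itself and Spi1, against 18.3% of all tested genes. They were apart at 3 lower members, against 14.2%. Gata1 and Cbfa2t3 are among those 3, and the remaining member is not detailed here. Gata1, the erythroid and megakaryocytic GATA factor, stood at 63.3 and 44.5 CPM in WT and at 38.9, 34.5 and 33.2 CPM in the Gata2-label libraries (-0.60 ± 0.22). Cbfa2t3, which encodes the corepressor ETO2, was mainly a feature of WT library 1, at 505 CPM there against 243 CPM in WT library 2 and 195, 195 and 223 CPM in the Gata2-label libraries. Without WT library 1 its log2 difference was -0.25. Spi1, the myeloid factor PU.1, measured 183 and 229 CPM in WT and 269, 245 and 294 CPM in the Gata2-label libraries (0.39 ± 0.21). Tal1, Lmo2, Runx1, Fli1, Erg, Cbfb, Lyl1, Myb, Meis1, Zfpm1 and Gata3 overlapped between the groups. Erg, for example, measured 66.0 and 66.4 CPM in WT and 59.3, 67.6 and 52.2 CPM in the Gata2-label libraries.

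No gene passed an adjusted p of 0.05 with edgeR's quasi-likelihood test, so no gene is described as having changed. It called 0 genes higher (0% of those tested) and 0 lower (0%), and the lowest adjusted p was 0.341. At an unadjusted p under 0.05 there were 829 genes higher (4.33%) and 1757 lower (9.17%). DESeq2, which estimates spread differently, called 34 of 15422 genes higher (0.22%) and 348 lower (2.26%). Of those 348, WT library 1 was over 2-fold above the highest other library at 300, and limma voom with quality weights, which lets a deviating library count less, called 0. With WT library 2 left out, so that WT library 1 alone stood for the WT group, edgeR called 5505 genes higher and 3150 lower. The groups did not overlap at 3509 genes higher (18.3%) and 2729 lower (14.2%), and these shares are the background for every count of non-overlapping members below. For a single value, 3 libraries against 2 allow no two-sided exact p below 0.2 in a rank-sum test.

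Genes with the widest gap between the groups were found by asking that every Gata2-label library lie at least 1.5-fold above, or below, every WT library on the scale of CPM + 1, among genes with a mean of 5 CPM or more. This criterion was chosen after the values were seen, and it needs both WT libraries to differ. It does not set the label apart from repeat share, in which both WT libraries also differed from the Gata2 label. The mean was taken over all Day0 libraries, so a gene could reach it through its higher group alone. It held for 9 genes on the higher side and 36 on the lower side. All 9 of the former and 23 of the latter were protein-coding, and 8 of the latter belonged to the unverified TEC class of annotation. Of the lower genes DESeq2 called 26, and of the higher genes it called 3.

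Nr4a1 (chromosome 15, 101254269 to 101274795, plus strand) had the widest gap among protein-coding genes on the lower side. It encodes an orphan nuclear receptor that is induced rapidly by stimulation and restrains stem cell proliferation. Its levels were 193 and 267 CPM in WT and 51.1, 87.5 and 68.9 CPM in the Gata2-label libraries. Every Gata2-label library thus lay far below both WT libraries, with a log2 fold change of -1.73 ± 0.25 (edgeR adjusted p = 0.341). The difference was -1.52 in male and -1.94 in female libraries, and -1.95 without WT library 1. Of its paralogs, Nr4a2 measured 38.3 and 28.7 CPM in WT and 15.7, 21.4 and 17.1 CPM in the Gata2-label libraries (-0.89 ± 0.35). Nr4a3 was low throughout, at 2.22 CPM or less. All 3 paralogs were lower in every Gata2-label library.

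Other early response genes showed the same direction at fewer members. Of the list's 28 immediate early genes, 27 were matched and passed. The groups were apart at 11 lower members (14.2% of all tested genes) and 2 higher ones, with a median log2 fold change of -0.31 against 0.02 for all tested genes. Klf4, a zinc finger factor linked to quiescence, measured 38.7 and 33.3 CPM in WT and 15.2, 14.1 and 14.7 CPM in the Gata2-label libraries (-1.29 ± 0.52). The Klf4 levels of the Gata2-label libraries lay close together and below both WT values. Egr1, the growth factor responsive zinc finger gene, stood at 1037 and 1171 CPM in WT and at 511, 956 and 447 CPM in the Gata2-label libraries. Gata2-label library 2 thus came close to WT for Egr1, and across the list that library was the highest of its group. In that library the members' mean of log2 (CPM + 1) lay 0.13 above its average over the 5 libraries. It lay at -0.24 and -0.39 in Gata2-label libraries 1 and 3. WT library 1 lay at 0.06 and WT library 2 at 0.44. Without WT library 2 the list's median was 0.04, whereas it was -0.51 without WT library 1. Ier3, an early apoptosis regulator, measured 107 and 110 CPM in WT and 76.5, 90.5 and 73.5 CPM in the Gata2-label libraries (-0.44 ± 0.15). Dusp2, which encodes a phosphatase of MAP kinases, measured 566 and 641 CPM in WT and 400, 506 and 470 CPM (-0.40 ± 0.15). Both genes were lower without overlap, but by less than Nr4a1.

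The cyclic AMP response element is a known control site of some early genes, so promoters of the list were searched for its palindrome TGACGTCA. The search covered 250 bases before to 50 after each start site in the RefSeq promoter table (GRCm38.p6), on both strands. Of the 23 list members with a promoter in that table, 3 held the palindrome (13.04%), against 2.03% of all 27025 promoters. They are shown because they place the element in the early genes, with its letters in capitals and each strand read 5′ to 3′ along the gene.
Btg2 (chr1:134079303-134079332, minus strand): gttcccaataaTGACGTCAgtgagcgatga
Dusp1 (chr17:26508597-26508626, minus strand): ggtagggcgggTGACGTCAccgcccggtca
Maff (chr15:79347480-79347509, plus strand): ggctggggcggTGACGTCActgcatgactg
Of these 3 genes, Maff, a small MAF factor, was lower without overlap, at 7.21 and 7.86 CPM in WT and 5.37, 5.73 and 7.10 CPM in the Gata2-label libraries, whereas Btg2 and Dusp1 overlapped. A match describes letters in a window and says nothing of binding.

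The chemokines CCL3 and CCL4 and several NF-kB genes were lower in the libraries labelled Gata2. Ccl4 (chromosome 11, 83662584 to 83664683, plus strand), which encodes MIP-1 beta, measured 160 and 155 CPM in WT and 66.3, 96.7 and 57.1 CPM in the Gata2-label libraries. Its log2 fold change was -1.11 ± 0.25, and -1.08 without WT library 1. Its neighbour Ccl3 (83647844 to 83649355, minus strand), which encodes MIP-1 alpha, measured 183 and 118 CPM in WT and 62.5, 77.4 and 64.6 CPM (-1.15 ± 0.20). Both were apart by at least 1.5-fold. Nfkbiz, an atypical nuclear IkB protein, measured 180 and 126 CPM in WT and 56.9, 78.2 and 63.8 CPM in the Gata2-label libraries (-1.21 ± 0.25). Tnfaip3, which encodes the NF-kB inhibitor A20, measured 53.8 and 57.7 CPM in WT and 28.6, 45.0 and 30.1 CPM. In each of these 4 genes both WT libraries lay above all 3 Gata2-label libraries. Nfkb1, Nfkb2 and Relb, which encode NF-kB subunits, were also without overlap, but their difference lay almost wholly in WT library 1. Relb, for instance, stood at 55.9 CPM there, at 15.9 CPM in WT library 2 and at 12.9, 14.3 and 13.5 CPM in the Gata2-label libraries. All 24 listed chemokine, cytokine and NF-kB genes passed the filter, with 9 apart and lower, 2 apart and higher and a median of -0.12. That median turned to 0.51 without WT library 2, so the list as a whole had no single direction. Summed over the list of 21 monocyte, macrophage and dendritic genes, which can also make these chemokines, the level was 2060 and 1133 CPM in WT and 1229, 927 and 1590 CPM in the Gata2-label libraries, and the part of such cells was not tested.

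**Figure D2:**
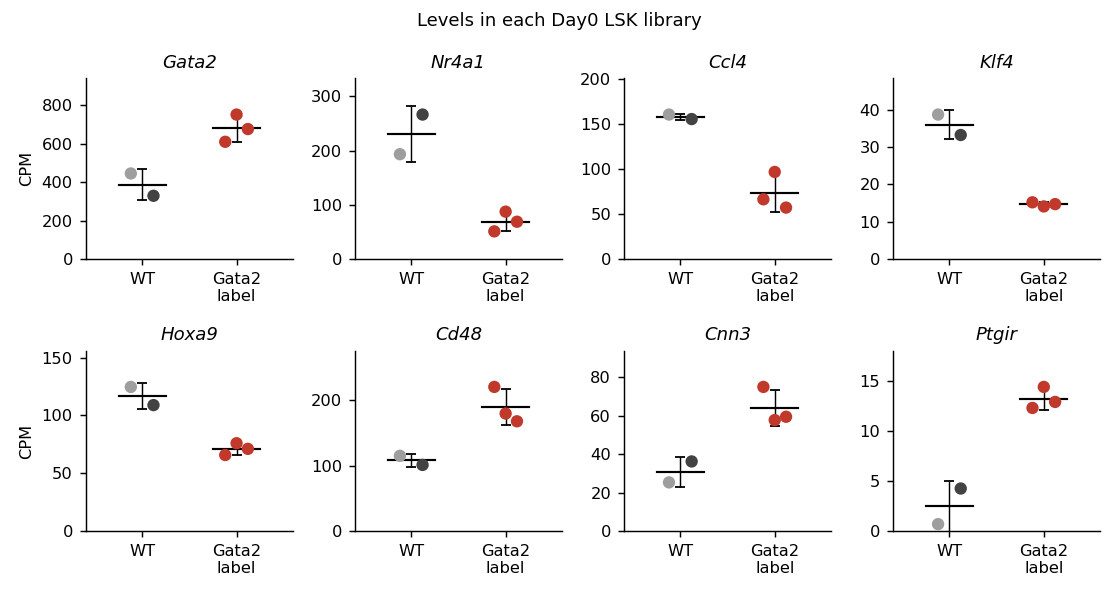
CPM (y axis, linear, from 0) of 8 genes in each Day0 LSK library; light grey points are WT library 1, dark grey points WT library 2 and red points the 3 libraries labelled Gata2, with horizontal bars at the group mean and whiskers of 1 SD. In each panel the groups do not overlap: Gata2, Cd48, Cnn3 and Ptgir are higher under the Gata2 label and Nr4a1, Ccl4, Klf4 and Hoxa9 lower.

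Several genes of long-term stem cells stood lower in the libraries labelled Gata2. Hlf, a PAR bZIP factor that marks mouse and human stem cells, measured 243 and 193 CPM in WT and 108, 140 and 137 CPM in the Gata2-label libraries (-0.76 ± 0.16). Mllt3, a chromatin reader that maintains stem cells, measured 89.6 and 44.0 CPM in WT and 28.0, 27.5 and 26.5 CPM (-1.29 ± 0.28). For Mllt3 the WT libraries differed by 2-fold, yet both exceeded each Gata2-label library. Slamf1, which encodes the stem cell marker CD150, was low, at 6.67 and 6.88 CPM in WT and 4.65, 5.97 and 5.59 CPM in the Gata2-label libraries. Procr, which encodes the stem cell marker EPCR, overlapped, at 20.4 and 24 CPM in WT and 21.8, 26.8 and 16.8 CPM (-0.03 ± 0.38). Mecom, a stem cell zinc finger factor, also overlapped, at 18.4 and 39.2 CPM against 22.8, 34 and 33.5 CPM. Markers of the same cells thus split into those that were lower and those that overlapped. Of the 24 long-term stem cell genes, all of which passed, 9 were apart and lower and 0 apart and higher, with a median of -0.47. The median was -0.42 without WT library 1 and 0.02 without WT library 2. Fewer stem cells in the sorted fraction and less RNA per cell cannot be told apart in bulk libraries.

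Hox genes showed the same direction. Hoxa9 (chromosome 6, 52223100 to 52231089, minus strand), a homeobox factor of stem cell self-renewal, measured 125 and 109 CPM in WT and 65.9, 76.1 and 71.2 CPM in the Gata2-label libraries. Its log2 fold change was -0.72 ± 0.14, and -0.62 both without WT library 1 and without WT library 2. Hoxa10 measured 27.7 and 17.8 CPM in WT and 10.7, 13.9 and 13.2 CPM in the Gata2-label libraries. Hoxa5 measured 15.1 and 14.3 CPM in WT and 10.5, 9.50 and 8.05 CPM. For these HoxA genes both WT libraries lay above every Gata2-label library. Hoxb4, which expands stem cells when overexpressed, measured 13.9 and 5.78 CPM in WT and 4.45, 3.90 and 4.21 CPM, so most of its difference came from WT library 1. Of 20 listed Hox and cofactor genes, 18 passed, with 7 apart and lower, 0 apart and higher and a median of -0.66. The median was -0.48 without WT library 1 and -0.24 without WT library 2. Without WT library 2 the median of all tested genes itself was 0.31, so the Hox list and the stem cell list (0.02) both lay below it there.

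Imprinted genes that are enriched in stem cells were low in level, and their differences leaned on WT library 1. Ndn, which encodes necdin, a growth suppressor, measured 33.0 and 11.6 CPM in WT and 4.63, 4.38 and 5.84 CPM in the Gata2-label libraries (-2.17 ± 0.41). Meg3, the noncoding RNA of the Dlk1-Gtl2 locus, measured 4.11 and 3.37 CPM in WT and 0.479, 0.537 and 1.08 CPM (-2.41 ± 0.61). Both WT libraries agreed on Meg3, whereas Ndn differed over 2-fold between them. The 18 imprinted genes all passed, with 6 apart and lower, 0 apart and higher and a median of -0.69 that became -0.28 without WT library 1.

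Further genes on the lower side had both WT libraries well above the Gata2 label. Smad7, the inhibitor of TGF-beta signalling, measured 83.2 and 62.6 CPM in WT and 34.8, 38.5 and 35.9 CPM in the Gata2-label libraries (-1.0 ± 0.26). Plk2, a stress-induced polo-like kinase, measured 39.4 and 37 CPM in WT and 13.7, 20.9 and 8.6 CPM (-1.41 ± 0.47). Per1, a core clock repressor, measured 247 and 123 CPM in WT and 80.3, 77.5 and 39.9 CPM (-1.49 ± 0.36). Of these, Smad7 had the closest agreement among the Gata2-label libraries, and Plk2 and Per1 were lowest in Gata2-label library 3. The linker histone gene Hist1h1c measured 116 and 128 CPM in WT and 71.6, 76.4 and 57.4 CPM in the Gata2-label libraries (-0.83 ± 0.18). Btg1, an antiproliferative gene, measured 185 and 138 CPM in WT and 93.9, 100.1 and 103 CPM (-0.71 ± 0.16).

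On the higher side, Cd48 marked the difference among surface genes. It encodes the SLAM family receptor carried by multipotent progenitors and absent from most long-term stem cells. Its levels were 115 and 101 CPM in WT and 220, 180 and 168 CPM in the Gata2-label libraries, a log2 fold change of 0.81 ± 0.18 (edgeR adjusted p = 0.341). The difference was 0.78 in male and 0.72 in female libraries, and 0.90 without WT library 1. Dntt, the terminal transferase of lymphoid-primed progenitors, measured 244 CPM in both WT libraries and 334, 279 and 389 CPM in the Gata2-label libraries (0.45 ± 0.15). Cd48 and Dntt were higher in each Gata2-label library, and their WT libraries lay close together. Cd34, carried by progenitors, stood at 372 and 651 CPM in WT and at 804, 832 and 770 CPM (0.65 ± 0.21), but only 0.30 higher without WT library 1. Flt3, the receptor of lymphoid-primed multipotent progenitors, overlapped, at 556 and 447 CPM in WT and 506, 492 and 459 CPM. Of 19 multipotent and lymphoid progenitor genes, all of which passed, 7 were apart and higher (18.3% of all tested genes) and 1 apart and lower, with a median of -0.04. Of the 13 LSK surface markers, all of which passed, 4 were apart and higher and 2 apart and lower.

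Leukocyte adhesion genes as a list stayed near the background. Itgal, the alpha chain of LFA-1, measured 53.4 and 91.4 CPM in WT and 132, 144 and 169 CPM in the Gata2-label libraries (1.03 ± 0.24). Selplg, which encodes the selectin ligand PSGL-1, measured 201 and 287 CPM in WT and 379, 363 and 409 CPM (0.65 ± 0.20). Of the 20 niche adhesion and homing genes, all of which passed, 5 were apart and higher and 1 apart and lower, with a median of 0.22 that was -0.01 without WT library 1. Itgal and Selplg are thus single genes and not a pattern of the list.

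Receptors for prostanoids were among the 9 higher genes with a gap of at least 1.5-fold. Ptgir (chromosome 7, 16906490 to 16910905, plus strand), which encodes the prostacyclin receptor, measured 0.725 and 4.27 CPM in WT and 12.3, 14.4 and 12.9 CPM in the Gata2-label libraries. Its log2 fold change was 2.37 ± 0.59, and 1.63 without WT library 1. Ptger2, which encodes the EP2 receptor for prostaglandin E2, measured 0.0484 and 8.15 CPM in WT and 22.5, 19.4 and 17.1 CPM (2.23 ± 1.09). The WT libraries disagreed widely for both genes, and both remained below every Gata2-label library. The other 7 genes with such a gap were Tcf7, Evpl, Tlr12, Arpp21, Tmem119, Cnn3 and Ptk7. WT means were also under 5 CPM for Tcf7, Tlr12 and Tmem119, at 3.91, 3.88 and 3.19 CPM. Evpl stood at 1.40 and 4.88 CPM in the WT libraries. Tcf7, the HMG-box factor TCF1 of lymphoid and stem cells, measured 2.90 and 4.92 CPM in WT and 12.2, 9.95 and 11.6 CPM (1.52 ± 0.59). Ptk7, a Wnt pathway receptor-like protein, measured 10.6 and 17.3 CPM in WT and 26.7, 32.8 and 27.5 CPM (1.05 ± 0.28). Cnn3, an actin-binding calponin, measured 25.4 and 36.2 CPM in WT and 74.8, 57.7 and 59.4 CPM (1.05 ± 0.22).

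Among protein-coding genes without overlap, the 12 of lowest p on the higher side ranged from 0.52 to 1.05 on the log2 scale. They were Slc39a6, Rpn1, Cnn3, Cpt1a, Lbr, Slc7a5, Cd48, Erap1, Gart, Tmem229b, Mcm4 and Mfsd14b. Of these, 4 are given as examples chosen after their values were seen. Cpt1a, which admits long-chain fatty acids to mitochondria for oxidation, measured 68.6 and 110 CPM in WT and 164, 192 and 169 CPM in the Gata2-label libraries (0.97 ± 0.20). Slc7a5, the large neutral amino acid transporter, measured 72.3 and 116 CPM in WT and 170, 177 and 179 CPM (0.90 ± 0.20). Gart, an enzyme of purine synthesis, measured 149 and 180 CPM in WT and 230, 249 and 251 CPM (0.56 ± 0.13). Slc39a6, a zinc importer, measured 41.8 and 54.2 CPM in WT and 80.5, 82.4 and 84.8 CPM (0.78 ± 0.14). In each of these genes the 3 Gata2-label libraries agreed closely, and WT library 2 lay between them and WT library 1.

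The 12 of lowest p on the lower side were Nr4a1, Ccl3, Ndn, Hoxa9, Ripor3, Nfkbiz, Pyroxd2, Obsl1, Mllt3, Hist1h1c, Hlf and Hs3st1. Ripor3 and Pyroxd2 show how far WT library 1 can carry a difference. Pyroxd2, an oxidoreductase gene, measured 59.0 CPM in WT library 1, 4.37 CPM in WT library 2 and 1.72, 1.73 and 2.87 CPM in the Gata2-label libraries, so that the log2 ratio was -4.46 between male and -0.47 between female libraries. DESeq2 called all 12 genes of each direction, but on the same counts from which they were picked, so that is no separate support. Limma voom called 0 genes. Over all tested genes, 54.7% had the same sign without regard to size in the male and in the female comparison.

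**Figure D3:**
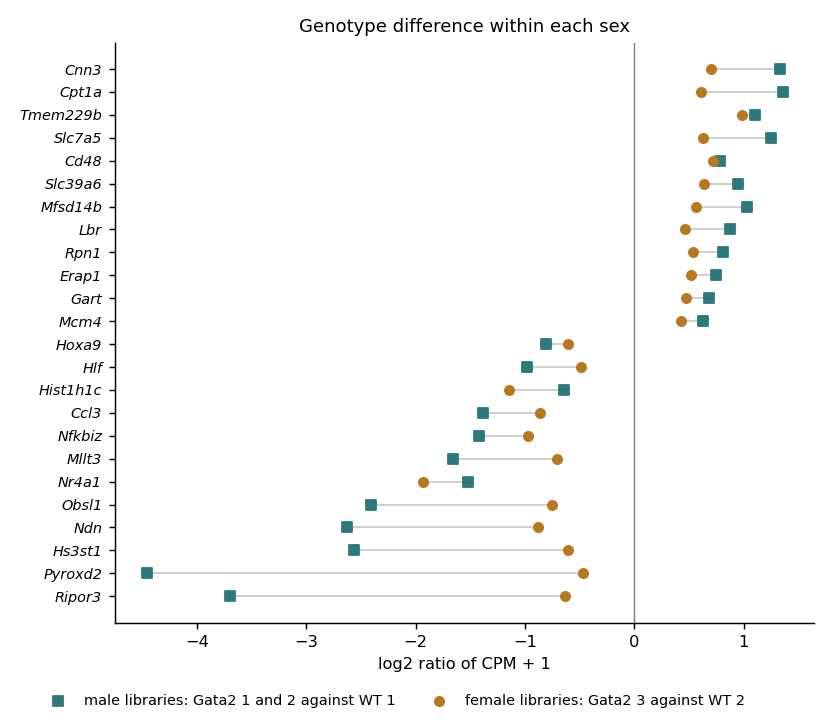
Log2 ratio of CPM + 1 (x axis), libraries labelled Gata2 against WT, for the 12 genes of lowest p in each direction (y axis), within the male libraries (squares, Gata2-label libraries 1 and 2 against WT library 1) and the female libraries (circles, Gata2-label library 3 against WT library 2). Groups that do not overlap fix the same sign in both sexes. The male ratio exceeds the female ratio in size for most genes, from -4.46 against -0.47 at Pyroxd2 to 0.78 against 0.72 at Cd48. Nr4a1 and Hist1h1c are larger in the female pair. WT library 1 is the only male WT library, so sex and that library cannot be told apart.

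DNA replication genes leaned to the higher side. All 35 passed the filter, with 18 apart and higher and 0 apart and lower. The median was 0.33, and it was 0.17 without WT library 1 and 0.63 without WT library 2, against 0.02, 0.02 and 0.31 for all tested genes. The MCM2-7 helicase, which opens DNA at origins, had all 6 subunits apart. Mcm4 measured 172 and 201 CPM in WT and 247, 288 and 270 CPM in the Gata2-label libraries (0.52 ± 0.12). Mcm6 measured 644 and 693 CPM in WT and 825, 926 and 871 CPM (0.39 ± 0.11). Mcm7 measured 463 and 465 CPM in WT and 557, 602 and 544 CPM (0.29 ± 0.11). Mcm6 and Mcm7 had nearly equal WT libraries, so these differences are small but not those of WT library 1 alone. Mcm2 measured 205 and 390 CPM in WT and 463, 545 and 535 CPM (0.79 ± 0.23), with WT library 1 lowest by far. Cdc6, a loader of the helicase, measured 47.9 and 67.5 CPM in WT and 83.6, 87.3 and 87.8 CPM (0.58 ± 0.17). Uhrf1, which maintains DNA methylation behind the fork, measured 227 and 320 CPM in WT and 397, 436 and 411 CPM (0.60 ± 0.16). Rrm1 and Rrm2, the subunits of ribonucleotide reductase, were apart too, at 209 and 286 CPM against 356, 372 and 328 CPM for Rrm1.

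Replication genes are classic E2F targets, and the E2F core TTTCCCGC or TTTGGCGC was found on either strand in 10 of the 28 list promoters in the RefSeq table (35.7%), against 1.80% of all promoters. The windows below belong to members that were apart and higher, with the core or its complement in capitals, 5′ to 3′ along the gene, on GRCm38.p6.
Mcm5 (chr8:75109349-75109378, plus strand): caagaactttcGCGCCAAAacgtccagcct
Mcm6 (chr1:128359734-128359763, minus strand): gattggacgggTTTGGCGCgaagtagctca
Mcm7 (chr5:138172030-138172059, minus strand): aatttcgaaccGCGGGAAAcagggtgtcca
Cdc6 (chr11:98908002-98908031, plus strand): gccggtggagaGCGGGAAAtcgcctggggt
Pola1 (chrX:93632275-93632304, minus strand): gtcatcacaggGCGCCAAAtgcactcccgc
Mcm5 measured 339 and 417 CPM in WT and 472, 544 and 554 CPM in the Gata2-label libraries, and Pola1, the catalytic subunit of the primase-polymerase, measured 77.4 and 107 CPM against 114, 126 and 116 CPM. E2F binding was not measured.

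Later cell cycle phases were less uniform. Of 26 G2 and mitosis genes, all of which passed, 4 were apart and higher and 1 was apart and lower, and the median of 0.27 shrank to 0.03 without WT library 1. Cenpa, the centromeric histone, measured 222 and 195 CPM in WT and 184, 178 and 153 CPM in the Gata2-label libraries. Cdkn1b, which encodes the inhibitor p27, measured 78.6 and 39.1 CPM in WT and 32.3, 37.1 and 28.4 CPM, so WT library 2 lay close to the Gata2 label. Cdkn1a, which encodes p21, stood slightly higher, at 41.2 and 42.3 CPM in WT and 58.1, 49.4 and 44.5 CPM. Repair genes resembled replication genes in their count: of 22, all of which passed, 12 were apart and higher and 1 apart and lower. Parp1, the DNA break sensor, measured 172 and 304 CPM in WT and 349, 391 and 404 CPM in the Gata2-label libraries (0.68 ± 0.21), and 0.33 without WT library 1.

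Myeloid progenitor genes were higher in the Gata2-label libraries, mostly by contrast with WT library 1. Mpo, the myeloperoxidase of granulocyte progenitors, measured 1290 and 2914 CPM in WT and 3910, 3404 and 5171 CPM in the Gata2-label libraries (0.99 ± 0.33). Csf2rb, the shared beta chain of the GM-CSF and IL-3 receptors, measured 52.5 and 81.6 CPM in WT and 91.2, 93.0 and 128 CPM (0.63 ± 0.22). Cebpa, the granulocytic master factor, stood at 18.1 and 56.2 CPM in WT and at 72.1, 59.7 and 101 CPM. In all of these WT library 1 was lowest by a margin and WT library 2 lay just below the Gata2 label. Elane, neutrophil elastase, overlapped, at 230 and 868 CPM in WT and 749, 469 and 854 CPM. Of 20 members, all of which passed, 8 were apart and higher and 0 lower, and the median of 0.46 became 0.16 without WT library 1 and 1.16 without WT library 2. Late neutrophil genes, summed, stood at 1356 and 664 CPM in WT and at 653, 539 and 1056 CPM in the Gata2-label libraries, so the sums overlapped. Their members behaved otherwise one by one: 13 of 16 lay higher, 2 of them apart, with a median of 0.58 that was 0.40 without WT library 1 and 2.01 without WT library 2. Of 24 megakaryocyte and erythroid genes, all of which passed, 2 were apart and higher and 4 apart and lower, with a median of -0.04.

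Genes of glycolysis and lipid synthesis showed a small excess over WT library 2 and a large one over WT library 1. All 19 glycolysis and lactate genes passed, with 14 apart and higher, 0 apart and lower and a median of 0.49, which was 0.17 without WT library 1. Pkm, pyruvate kinase, measured 638 and 1105 CPM in WT and 1305, 1326 and 1368 CPM in the Gata2-label libraries (0.61 ± 0.21). Slc16a1, the lactate transporter MCT1, measured 36.5 and 67.8 CPM in WT and 104, 91.2 and 89.9 CPM (0.86 ± 0.25). Among 21 cholesterol and fatty acid genes, all of which passed, 9 were apart and higher and 1 apart and lower. Fasn, fatty acid synthase, measured 108 and 242 CPM in WT and 273, 319 and 360 CPM (0.86 ± 0.32). Among 23 MYC and ribosome biogenesis genes, all of which passed, 11 were apart and higher and 0 lower, and here the median was 0.15 with and 0.14 without WT library 1. Myc itself was only just apart, at 733 and 768 CPM in WT and 772, 789 and 986 CPM in the Gata2-label libraries. Cytosolic ribosomal protein genes, in contrast, had 0 members of 30 apart and higher and 5 apart and lower.

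**Figure D4:**
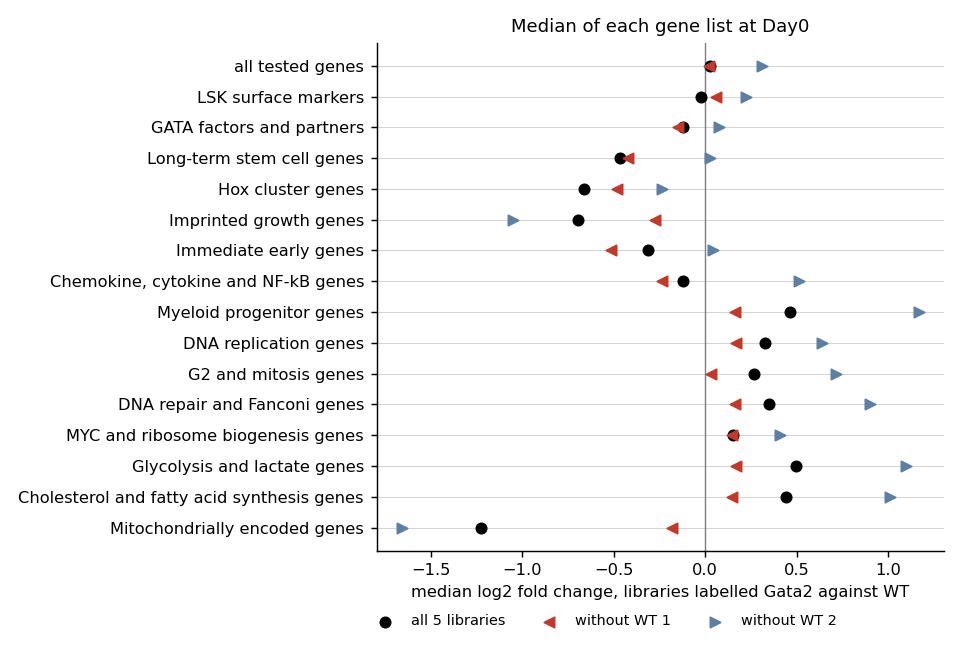
Median log2 fold change (x axis), libraries labelled Gata2 against WT at Day0, of 15 gene lists and of all tested genes (y axis), with all 5 libraries (circles), without WT library 1 (left triangles) and without WT library 2 (right triangles). Of the lists drawn, the Hox, imprinted and mitochondrially encoded lists lie below 0 under all 3 readings. The replication, glycolysis, repair, myeloid progenitor, cholesterol and MYC lists lie at 0.14 or more under each. The G2 and mitosis list also stays above 0, at 0.03 without WT library 1. Without WT library 2 the median of all tested genes itself moves to 0.31.

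Mitochondrially encoded RNA was lower under the Gata2 label almost wholly through WT library 1. Of 15 genes, 13 passed, with 5 apart and lower, and their median was -1.23, or -0.18 without WT library 1. The 16S ribosomal RNA gene mt-Rnr2 measured 7521 CPM in WT library 1, 1926 CPM in WT library 2 and 1840, 1432 and 1185 CPM in the Gata2-label libraries. Il7r, the lymphoid IL-7 receptor chain, had a log2 fold change of -1.74 ± 0.60 that became -0.02 without WT library 1, since that library held 39.7 CPM and the other 4 between 6.23 and 7.77 CPM. Chromatin genes mutated in myeloid disease split: Kmt2a measured 350 and 217 CPM in WT and 175, 171 and 171 CPM in the Gata2-label libraries, whereas Bcor measured 47.4 and 67.5 CPM against 79.1, 92.7 and 87.4 CPM. Of those 22 genes, all of which passed, 3 were apart and higher and 4 apart and lower.

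The same contrast in the LSK libraries of Day2 was set beside Day0. Gata2 was higher under its label at both, by 0.81 ± 0.20 at Day0 and 1.18 ± 0.19 at Day2. Ccl4 was lower at both (-1.11 ± 0.25 and -1.75 ± 0.28), as were Nfkbiz (-1.21 and -1.30) and Hist1h1c (-0.83 and -0.95). Hoxa9, in contrast, measured a mean of 39.9 CPM in Day2 WT and 41.6 CPM in the Day2 Gata2-label libraries, a difference of 0.06 ± 0.14. For Nr4a1 the level itself was far lower at Day2, with means of 12.5 and 9.73 CPM. Of the 12 genes of lowest p on the lower side, 10 were lower at Day2 and 8 were apart there in that direction, and their Day2 median was -0.39. Over all tested genes at Day2, 50.1% were lower and 11.1% apart and lower, and 47.6% were higher and 9.96% apart and higher. Of the 12 on the higher side, 6 were higher and 6 lower at Day2, and 3 were apart in the Day0 direction. The difference between the Day0 and Day2 effects passed an adjusted p of 0.05 for 0 genes (0%) with edgeR, with 1984 genes at an unadjusted p under 0.05. DESeq2 called 221 for that difference and limma voom 0.

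Glycolysis genes stood on opposite sides at Day0 and Day2. Their median was 0.49 at Day0, or 0.17 without WT library 1, and -0.73 at Day2, where 18 of the 19 were lower, against 50.1% of all tested genes. With TEC share as a covariate the Day0 values of Hk1, Eno1 and Pgk1 turned to -0.020, -0.033 and -0.12. Slc16a3, the lactate exporter MCT4, measured 7.30 and 11.7 CPM in Day0 WT and 15.3, 13.7 and 16.3 CPM in the Day0 Gata2-label libraries, but means of 345 and 150 CPM at Day2. Its effect differed between the days by 1.86 ± 0.27 on the log2 scale (edgeR unadjusted p = 5.61e-05, adjusted p = 0.465). Across tested genes, 441 were apart and higher at Day0 and apart and lower at Day2, and 426 the reverse, against 259 and 244 apart in the same direction at both.

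**Figure D5:**
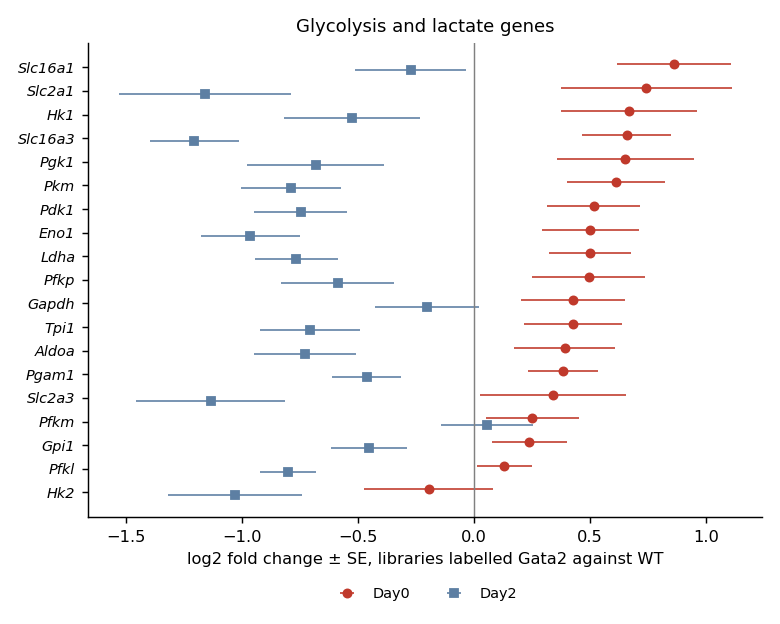
Log2 fold change with its SE (x axis), libraries labelled Gata2 against WT, of the 19 glycolysis and lactate genes (y axis) at Day0 (red circles) and Day2 (blue squares). At Day0 18 of the 19 lie above 0 and at Day2 18 lie below 0.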

How the data were processed

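The authors deposited raw counts, 1 whole number for each Ensembl ID and library. The submitters' processing notes name Trimmomatic 0.38, STAR 2.5.2b and the build mm10. For the counting step, its program, strand setting and annotation were not given in the sources used here. Overlapping, antisense and near-identical genes may therefore share reads. RNA came from RNeasy Micro columns, and libraries from a stranded mRNA or a low-input kit, per the labels' protocols, without saying which library had which.

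GENCODE M21 (the build of mm10) named 45143 of the 45706 IDs; 0 rows named no gene. The 10 LSK libraries were fitted as 4 groups with edgeR 4.0.16 in R 4.3.3 (TMM, filterByExpr, robust quasi-likelihood test, Benjamini-Hochberg adjustment over all 19162 tested genes). Alternatives included DESeq2 1.42.0 and limma 3.58.1 voom. The fit was also run on simulated counts with known changes. Apart from those changes all simulated libraries shared 1 mean profile, so that run does not cover a deviating library such as WT library 1. Pairs of libraries differed by more than sampling noise (chi-square over genes of 20 or more summed counts), so none was merged with another. Each was counted as 1 replicate. That spread does not show that libraries came from separate animals, which the labels do not name. Replicate numbers were not shown to pair libraries.

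The 39 gene lists (800 entries, 798 matched) and the members named were chosen with earlier results of these data known. The rule named Gata2, the 12 protein-coding genes of lowest p in each direction with non-overlapping groups, 5 CPM or more and the same sign in both sexes (which groups without overlap already fix), the 3 members of lowest p per list, and the surface marker and GATA lists. Other genes were chosen as examples after their values were seen. Lists carry counts and medians without a test.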

Additional observations from a re-analysis of the deposited data

Results flagged for a closer look

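The following genes were flagged because every Day0 library labelled Gata2 lay on one side of WT and every Day2 library on the opposite side. They were taken only from genes already examined by name. Of all 19162 tested genes, 441 were apart and higher at Day0 and apart and lower at Day2, and 426 the reverse. The flagged genes are therefore examples and not the genes that the rule picks out. Each value is the Day0 effect minus the Day2 effect on the log2 scale, from edgeR, and none passed after adjustment (adjusted p of 0.465 or more). Among glycolysis and lactate genes the values were 1.86 for Slc16a3, 1.40 for Pkm, 1.27 for Ldha, 1.47 for Eno1, 1.34 for Pgk1 and 1.19 for Hk1. Among repair and damage genes they were 0.926 for Parp1, 1.2 for Fancb and 1.73 for Phlda3, a p53 target. The value was 3.21 for Tcf7, 0.763 for the Wnt effector Ctnnb1, 0.930 for the sterol enzyme gene Sc5d, 0.541 for Klf10 and 1.02 for the transporter gene Mfsd14b. Genes lower at Day0 and higher at Day2 gave -2.29 for mt-Nd6, -2.02 for mt-Nd2, -2.10 for the endothelial and stem cell sialomucin Emcn and -1.41 for Nr4a2. The Day0 side of most of these genes leaned on WT library 1. Without it the Day0 effect went from -1.55 to -0.39 for mt-Nd6, from -1.50 to -0.37 for mt-Nd2 and from -1.49 to -0.43 for Emcn. It went from 0.65 to 0.15 for Pgk1, from 0.50 to 0.15 for Eno1, from 0.67 to 0.23 for Hk1, from 0.61 to 0.27 for Pkm and from 0.50 to 0.24 for Ldha. It went from 0.66 to 0.37 for Slc16a3, from 0.68 to 0.33 for Parp1, from 0.69 to 0.33 for Sc5d and from 0.85 to 0.51 for Fancb. For Mfsd14b, Phlda3, Ctnnb1, Tcf7 and Nr4a2 it was smaller by about 1.5 times or less, and for Klf10 it was larger.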

How the results depend on the processing

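With edgeR, 0 genes were higher, 0 lower and 0 different between Day0 and Day2. DESeq2 called 34, 348 and 221. Without a low count filter, 1 gene was lower and 2 differed between the days. Leaving out a library gave 0 to 5505 genes higher, 0 to 3150 lower and 0 to 6733 different, and all calls came without WT library 2, when WT library 1 alone stood for WT and is assumed to vary like the libraries of the remaining groups. With the replicate number as a block (replicate block) the counts were 0, 0 and 0, and same-numbered libraries had correlations of deviations of 0.044 and -0.017. The other alternatives (RLE and upper quartile scaling, 5 CPM in 2 libraries, protein-coding genes alone, Day0 libraries alone, all 16 libraries, limma voom, and sex, repeat share or TEC share as a covariate) called 0 genes. Log2 fold changes turned direction in some settings. With TEC share as a covariate mt-Nd6 came to 0.019, mt-Nd2 to 0.047, mt-Rnr2 to 0.032, Cbfa2t3 to 0.049, Hk1 to -0.020, Eno1 to -0.033, Pgk1 to -0.12, Il7r to 0.46, Mecom to -0.58 and Elane to -0.68. With repeat share Cbfa2t3 came to 0.086, Dtx1 to 0.048, Pgk1 to -0.0053, Mecom to -0.31 and Elane to -0.73. Mecom, whose groups overlap, came to -0.0092 with the filter of 5 CPM in 2 libraries, -0.13 with limma voom and -0.011 with upper quartile scaling. Procr, whose groups also overlap, came to 0.11 without a low count filter and 0.14 with the replicate block. Leaving out 1 library in turn ranged from -0.38 to 0.91 for Mecom, from -0.22 to 0.29 for Procr and from -0.33 to 1.78 for Elane. The cause was not tested. The depth of WT library 1 limits genes of low level.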

Other observations

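Counts of non-overlapping members in the lists not described above stand against 18.3% of all tested genes apart and higher and 14.2% apart and lower. Of 21 Notch, Wnt and TGF-beta pathway genes, 10 were apart and higher and 4 apart and lower. The median of the list was 0.25 on the log2 scale, or 0.13 without WT library 1. Of 22 cytokine receptor genes 7 were apart and higher and 1 lower, and of 25 nuclear genes of oxidative phosphorylation 9 were higher and 3 lower, with a median of 0.13 that was 0.03 without WT library 1. Of 22 heat shock and unfolded protein genes 6 were higher and 1 lower. Calr, the calcium-binding chaperone calreticulin, measured 594 and 1001 CPM in WT and 1305, 1158 and 1278 CPM in the Gata2-label libraries (0.64 ± 0.21).

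Among stem cell ageing and quiescence genes, 23 of 24 passed, with 6 apart and lower and 1 higher. Of 18 replication-dependent histone genes 17 passed, with 4 apart and lower and 0 higher. The interferon list of 26 had 3 higher and 1 lower, the p53 and apoptosis list of 22 had 5 higher and 1 lower, and the list of 14 cytokine feedback genes had 1 higher and 4 lower. Of 23 tested cyclins, Cdks and inhibitors 6 were higher and 2 lower, of 17 splicing genes 4 and 3, and of 21 iron, heme and oxidative stress genes 5 and 3. Among other cell types, the counts were 4 higher and 2 lower of 19 B, T and NK cell genes, 1 and 2 of 15 tested mast cell and basophil genes, and 1 and 2 of 12 tested stroma and endothelium genes.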
